A study of Mus musculus with 24 samples.

Results

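Interferon-stimulated genes, a set of 36 genes chosen by name, were followed across 12 groups of wild-type (WT) and Siah-deficient mouse embryonic fibroblasts (MEFs). A probe belonged to the set when its gene symbol was one of the 36, and where a member had several, the one brightest on average over the 24 arrays (log2 scale) stood for it. Of the 36 genes, 35 had a probe and 33 had a probe above background on at least 1 array, out of 13547 genes measured above background in the series. The genes were listed by name, with earlier results of these data known, so their shares of calls are descriptions and no independent evidence. The 33 measured members had 57 probes above background, and 15 of them had more than 1. Ifi44 was not analysed here, and Ifit1 and Xaf1 stayed below background on every array. Among the 33, Oas1a, Ifih1 and Rtp4 passed the background filter only through WT arrays and Trim25 only through KO arrays, so their place among the measured members rests on the genotype in which they were bright.

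The study compared WT MEFs with Siah1a-/-::Siah2-/- MEFs (KO), which lack a pair of RING finger ubiquitin ligases. Each genotype had an untreated group, groups kept for 12 h at low oxygen (OD), without glucose (GD) or under both conditions (OGD), and groups given thapsigargin (TG) or tunicamycin (TM) for 6 h. TG lets calcium leak from the endoplasmic reticulum (ER) and TM blocks N-linked glycosylation there, so both cause ER stress. RNA was hybridized to Illumina Mouse-6 BeadChips, with 2 arrays in each group. The cells were treated in duplicate, and nothing states that the duplicates came from separate cultures or embryos. The p-values therefore measure only the spread between these arrays, and the number of arrays limits the precision. The study calls its WT and KO MEFs litter-matched, a strain background is stated for the study's mice and not for these MEFs, and 1 legend of the study gives the KO cells of its qPCR panels as heterozygous for Siah1a. In bulk RNA of this kind, fewer cells that express a gene and less RNA per cell cannot be told apart.

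Interferons are secreted proteins that warn cells of infection. Type I interferons bind the receptor IFNAR, whose kinases JAK1 and TYK2 phosphorylate STAT proteins. These join IRF9 in the ISGF3 complex, which binds the interferon-stimulated response element (ISRE) of its target genes. Interferon gamma acts through its own receptor and STAT dimers on the gamma-activated site (GAS), and IRF1 carries part of that response onward. The products cut or sense viral RNA, block entry and release of virus, attack the vacuoles of intracellular microbes, or attach the ubiquitin-like protein ISG15 to other proteins. Fibroblasts both make and answer type I interferon and keep a low level of many of these genes without infection.

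The promoters of members on which the results turn are shown by their response elements. RefSeq windows (build GRCm38.p6) run from 250 bases before to 50 after a gene's start, and 28 of the 36 members had at least 1. The ISRE letters GAAANNGAAA, searched on both strands, stood in 16 of 34 member windows (47.1%), against 3.44% of all 32851 windows of that length. The GAS letters TTCNNNGAA, which read the same on both strands, stood in 9 member windows (26.5%), against 8.30% of all windows. The motifs overlap each other in the windows of Ifitm3 and Bst2, several windows hold overlapping copies of the ISRE letters, of which 1 is shown, and a match is a description of the letters only. The matched letters are in capitals below, with 8 bases on each side, 5' to 3' on the strand that carries the match. Isg15, Gbp3, Ifit3 and Igtp are shown because they were lower in untreated KO cells, Gbp2 because it was higher in KO cells under TM, Ddx58 and Trim21 because their KO and WT responses to TM differed, and Irf1 for its GAS letters.
Isg15 (chr4:156200879-156200904, minus strand): tgccgtagGAAAAGGAAAccgaaaca
Gbp3 (chr3:142559991-142560016, minus strand): gggaaataGAAACTGAAActgtgtcc
Ifit3 (chr19:34583399-34583424, minus strand): ggaaagtaGAAACTGAAAcagactta
Igtp (chr11:58199514-58199539, plus strand): taggaactGAAACTGAAAgctgttcg
Gbp2 (chr3:142620596-142620621, minus strand): aagacagtGAAAGTGAAActaaaaga
Ddx58 (chr4:40239806-40239831, plus strand): ggccatagGAAATCGAAActgcctca
Trim21 (chr7:102565452-102565477, minus strand): tctgagagGAAACTGAAAgtgaaatt
Irf1 (chr11:53769916-53769940, plus strand): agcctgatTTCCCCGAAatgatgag
In untreated cells, 5 of the 15 measured members with ISRE letters in a window were lower in KO cells (against 1.44% of all measured genes), with a median log2 difference of -0.76. Among the 11 with a window that held no such letters, 4 were lower and 1 was higher (against 1.44% and 2.27%), with a median of -0.99. The windows of Irf9, Oasl2, Samd9l, Dtx3l and Trim25 held neither motif, and Usp18, Mx2 and Parp14 had no window in the table.

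Signals are linear intensities as normalized by the authors, and a probe counted as above background over 231. Log2 signals of all 24 arrays were fitted together with limma, and a call required at least a 2-fold difference and a p under 0.05 after Benjamini-Hochberg adjustment across the kept probes. Standard errors (SE) are of log2 differences and pool the spread of duplicates over all 12 groups, with n = 2 arrays per group. Duplicates correlated with an r of 0.955 to 0.994 over kept probes. The array names given by the study place the untreated and GD arrays of both genotypes and the OD and OGD arrays of WT cells on 1 pair of BeadChips, and the other groups on a second pair. KO and WT cells thus lay on the same pair when untreated and under GD, TG and TM, whereas under OD and OGD genotype and BeadChip pair cannot be told apart. The targeted genes were checked first, with Siah1a at 1155 to 1839 in WT and 178 to 303 in KO cells, and Siah2 at 505 to 2014 and 239 to 718. The Siah2 ranges overlap and its KO signal stayed above background on every array, with KO cells lower when untreated and under TG and TM (-1.12, -1.64 and -1.95) and no call under OD, GD and OGD, so the probe does not show its loss.

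Duplicates stood furthest apart for the members in WT cells under GD. There 12 of 33 members (36.4%) differed at least 2-fold between the arrays, each time with replicate 1 higher, while 3.80% of all kept probes differed that much. Untreated WT and WT OD duplicates each had 5 such members, and the TG and TM groups of both genotypes had 0. The mean log2 signal over the 33 members was highest in WT cells under TG (arrays at 10.15 and 10.19) and in untreated WT cells (9.87 and 10.31), whose ranges overlapped. It was lowest in KO cells under OGD (8.82 and 8.90), followed by KO cells under GD (8.97 on both arrays), OD (9.02 and 9.17) and no treatment (8.96 and 9.29), whose ranges overlapped or nearly met. KO cells under TM (9.55 on both arrays) lay above WT cells under TM (9.30 and 9.31), the only condition in which the KO mean was the higher one.

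**Figure D1:**
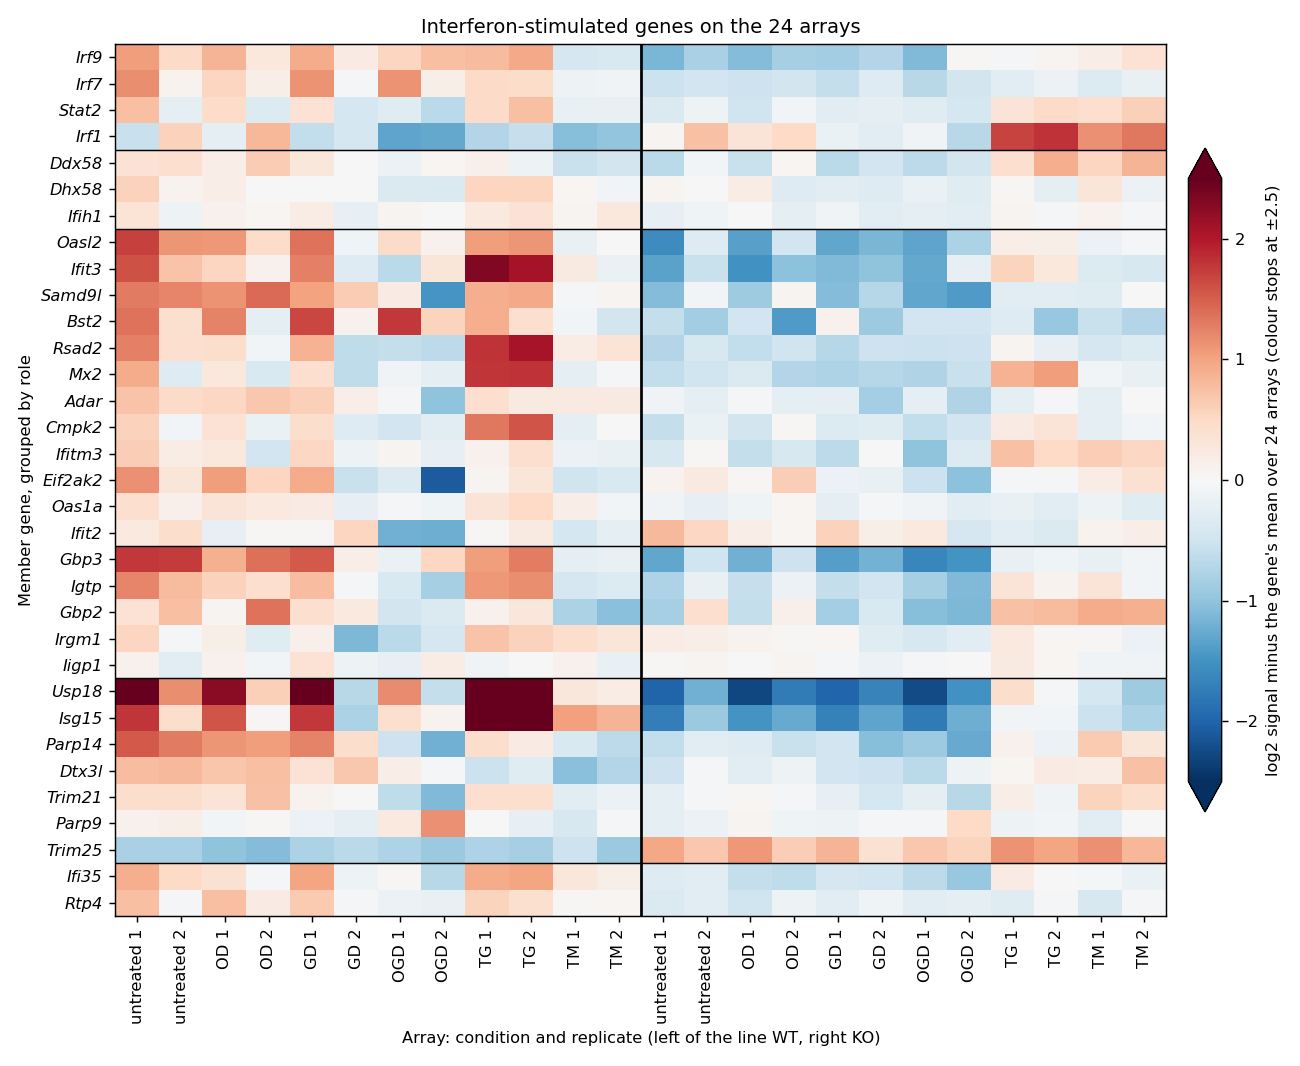
Heat map of the 33 measured members (rows, grouped by role) on the 24 arrays (columns, WT left and KO right of the line). Colour gives log2 signal minus the gene's own mean over the 24 arrays, red above and blue below, and does not deepen past a fixed limit. The rows of Isg15, Ifit3, Rsad2 and Mx2 are darkest red on both WT TG arrays. Usp18 reaches the colour limit on both WT TG arrays and also on some WT arrays of other groups. Irf1 is red on the KO TG and TM arrays, and Trim25 is blue on every WT array and red on every KO array.

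The first comparison asked which members differ between untreated KO and WT cells. Of the 33, 11 were lower in KO cells (33.3%, against 1.44% of all measured genes) and 1 was higher (against 2.27%). Their median log2 difference, KO minus WT, was -0.77, while the median over all measured genes was near 0. The 11 were the transcription factor Irf9, the effectors Ifit3, Oasl2, Rsad2 and Samd9l, the GTPases Gbp3 and Igtp, and the protein modifiers Isg15, Usp18, Parp14 and Dtx3l. Without 1 array at a time, 4 to 12 members were called. The 4 came without replicate 1 of the KO arrays, and 6 without replicate 1 of the WT arrays. In a fit on only these 4 arrays, 3 members passed, Gbp3, Parp14 and Trim25.

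Usp18 showed the largest difference. It encodes the protease that strips ISG15 from proteins and dampens the type I interferon receptor. Usp18 signals in WT cells were 6029.5 and 2104 untreated, 4526 and 1421 under OD, 6405 and 581 under GD, 2138 and 628 under OGD, 6919 and 7043 under TG and 1151 and 1075 under TM. Usp18 in KO cells gave 235 and 413 untreated, 196 and 281 under OD, 238 and 296 under GD, 199 and 329.7 under OGD, 1288 and 926 under TG and 693 and 511 under TM. Every KO array lay below both WT arrays of its condition, and in WT cells untreated and under OD, GD and OGD replicate 1 was brighter than replicate 2, by up to 3.46 on the log2 scale under GD. The log2 difference was -3.51 (SE 0.85, adjusted p = 0.025) untreated and -3.43 (SE 0.85, adjusted p = 0.0267) under OD. Under GD and TG it was -2.86 (SE 0.85, adjusted p = 0.0762) and -2.68 (SE 0.85, adjusted p = 0.075), past 2-fold without passing the adjusted p. The shared SE of 0.85 carries the spread of the WT groups into the TG comparison, where the duplicates lay close together. The second probe of Usp18 gave -1.7 untreated and -1.31 under OD.

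Isg15, the ubiquitin-like modifier that Usp18 removes, was also lower in KO cells. Isg15 in WT cells read 2911 and 1133 untreated, 2508 and 855 under OD, 2845 and 487 under GD, 1111 and 899 under OGD, 6024 and 6268 under TG and 1703 and 1512 under TM. Isg15 in KO cells read 254 and 444 untreated, 298 and 349 under OD, 259 and 335 under GD, 247 and 359.6 under OGD, 805 and 798 under TG and 577 and 488 under TM. The genotypes did not overlap in any condition. Its log2 difference was -2.43 (SE 0.63, adjusted p = 0.0368) untreated and -2.94 (SE 0.63, adjusted p = 0.00812) under TG. The other 4 conditions gave differences of -1.60 to -2.18 that did not pass.

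Gbp3, a guanylate-binding protein that coats pathogen vacuoles, gave the firmest difference of the GTPases. Gbp3 signals in WT cells were 2201 and 2161 untreated, 1189 and 1687 under OD, 1874 and 724 under GD, 578 and 919 under OGD, 1333 and 1569.6 under TG and 544 and 566 under TM. Gbp3 in KO cells gave 261 and 459 untreated, 281 and 454 under OD, 248 and 286 under GD, 207 and 231 under OGD, 568 and 598 under TG and 568 and 617 under TM. KO cells were lower in 5 conditions, from -2.66 untreated (SE 0.36, adjusted p = 0.000272) to -1.31 under TG (adjusted p = 0.039), and close to WT cells under TM, where both KO arrays lay just above the WT arrays and the difference was 0.09 with a 95% interval from -0.68 to 0.87. Under OGD neither KO array was above background, so KO cells were at least 3.15-fold lower. Its second probe gave -2.45 untreated. Igtp, an immunity-related GTPase of the same defence, read 897 and 672 untreated, 579 and 514 under OD, 659 and 374 under GD, 295 and 218 under OGD, 813 and 862 under TG and 287 and 305 under TM in WT cells. Igtp in KO cells gave 227 and 341 untreated, 259.8 and 351 under OD, 256 and 277 under GD, 216 and 179 under OGD, 482 and 409.6 under TG and 484 and 369 under TM. Untreated KO cells were lower, at -1.48 (SE 0.26, adjusted p = 0.00269), and the KO arrays lay below the WT arrays in every condition but TM, where they lay above. The 3 other GTPases, Gbp2, Irgm1 and Iigp1, were not called in untreated cells, with log2 differences of -0.76, -0.09 and 0.14. The second probe of Gbp2 gave -0.08, and the further probes of Irgm1 gave -0.91 and 0.13.

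Antiviral effectors gave 4 of the 11 lower calls. Oasl2, a relative of the enzymes that make 2-5A in response to double-stranded RNA, read 1648 and 1079.6 untreated, 1077 and 698 under OD, 1288 and 468 under GD, 700.1 and 544 under OGD, 1049 and 1081 under TG and 446 and 511 under TM in WT cells. Oasl2 in KO cells gave 170.0 and 402 untreated, 196 and 365 under OD, 206 and 229 under GD, 203 and 293 under OGD, 564 and 559 under TG and 457 and 491 under TM. The difference was -2.35 (SE 0.44, adjusted p = 0.00406) untreated, and under GD, where the KO arrays were below background, KO cells were at least 3.36-fold lower. The second probe of Oasl2 gave -0.58 untreated, -0.26 under OD and -0.31 under GD. Its OD call was lost with the median of the gene's probes. The genotypes overlapped under TM alone. Ifit3, which joins other IFIT proteins on viral RNA, read 3183 and 1712 untreated, 1524 and 1132 under OD, 2512 and 837 under GD, 653 and 1293 under OGD, 5197 and 4444 under TG and 1219 and 941 under TM in WT cells. Ifit3 in KO cells gave 416 and 710.0 untreated, 366 and 513 under OD, 488 and 522 under GD, 435 and 909.5 under OGD, 1542 and 1254 under TG and 833 and 790.4 under TM, lower at -2.10 (SE 0.48, adjusted p = 0.016) untreated and at -1.79 (SE 0.48, adjusted p = 0.0306) under TG. Under OGD the KO array of replicate 2 lay between the WT arrays. The second probe of Ifit3 gave -1.04 untreated and -1.32 under TG. Samd9l, which restricts poxvirus translation, read 6065 and 5744 untreated, 5351 and 6610.3 under OD, 4975 and 3829 under GD, 2839 and 881 under OGD, 4629 and 4769 under TG and 2389 and 2593 under TM in WT cells. Samd9l in KO cells gave 1163 and 2346 untreated, 1332 and 2585 under OD, 1160.5 and 1509.9 under GD, 1003 and 923 under OGD, 2026 and 2031 under TG and 1999.8 and 2449 under TM, with a difference of -1.84 (SE 0.42, adjusted p = 0.018) untreated and overlap of the genotypes under OGD and TM. Rsad2 (viperin, which makes a chain-terminating nucleotide) differed by -1.41 (SE 0.35, adjusted p = 0.0305), from 752 and 416 in WT to 188 and 236 in KO cells.

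Of the 7 protein modifiers, 4 were lower and 1 was higher in untreated KO cells (against 1.44% and 2.27% of all genes). Parp14, a mono-ADP-ribosyltransferase, read 1416 and 1215 untreated, 1049 and 1009.8 under OD, 1152 and 664 under GD, 343 and 213 under OGD, 668 and 563 under TG and 379 and 314 under TM in WT cells. Parp14 in KO cells gave 321 and 407 untreated, 391 and 332 under OD, 353 and 233 under GD, 263 and 204 under OGD, 529.6 and 445 under TG and 776 and 609 under TM. Untreated KO cells were lower, at -1.86 (SE 0.28, adjusted p = 0.000574), a call kept under all 14 alternatives run, and the genotypes stood apart untreated and under OD, GD and TG, overlapped under OGD and crossed under TM. Dtx3l, a ubiquitin ligase that partners Parp9, read 2001 and 2055 untreated, 1888 and 1979 under OD, 1491 and 1856 under GD, 1308 and 1147 under OGD, 804 and 952 under TG and 567 and 699 under TM in WT cells. Dtx3l in KO cells gave 811 and 1127 untreated, 971 and 1064 under OD, 839 and 818 under GD, 736 and 1073 under OGD, 1207 and 1354 under TG and 1321 and 1945 under TM. The KO arrays lay below the WT arrays untreated and under OD, GD and OGD and above them under TG and TM. Its untreated difference was -1.09 (SE 0.21, adjusted p = 0.00581), but its second probe gave -0.16 and the call was lost with the median of the gene's probes.

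Trim25 went the other way. It encodes the ubiquitin ligase that acts on the RNA sensor RIG-I and also attaches ISG15. Trim25 in WT cells stayed below background on all 12 arrays, with signals of 131 to 192. Trim25 in KO cells gave 539.8 and 439 untreated, 585 and 423 under OD, 496 and 361 under GD, 443 and 409 under OGD, 603 and 546 under TG and 611 and 492 under TM, above background on all 12. No KO array overlapped a WT array in any condition. Because the WT arrays gave only an upper limit, KO cells were at least 2.11-fold higher untreated, and at least 1.83-fold to 2.48-fold higher over the 5 stresses. The measured log2 difference was 1.34 to 1.89 over the 6 conditions. Trim25 had 2 probes, of which 1 was above background. It passed the background filter only through KO arrays, so its higher calls are descriptions and no independent evidence.

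The transcription factors differed among themselves. Irf9 in WT cells read 2057 and 1389 untreated, 1802 and 1199 under OD, 1900.4 and 1145 under GD, 1444 and 1687 under OGD, 1714 and 1921 under TG and 740.5 and 763 under TM. Irf9 in KO cells gave 453 and 567 untreated, 469.9 and 557 under OD, 543 and 598 under GD, 461 and 1012 under OGD, 979 and 1051 under TG and 1121 and 1287 under TM. The difference was -1.74 (SE 0.31, adjusted p = 0.00302) untreated and passed under OD, GD and OGD too, at -1.19 to -1.52, with the KO arrays below the WT arrays in every condition but TM. The second probe of Irf9 gave -1.08 untreated, -0.83 under GD and -0.31 under OGD. Its GD and OGD calls were lost with the median of the gene's probes. Irf7, which amplifies the production of type I interferon, read 603 and 284 untreated, 390.3 and 298 under OD, 589 and 259 under GD, 589 and 298 under OGD, 375 and 369 under TG and 247 and 254 under TM in WT cells. Irf7 in KO cells gave 185 and 193 untreated, 188 and 195 under OD, 179 and 216 under GD, 165 and 196 under OGD, 222 and 242 under TG and 214 and 236 under TM, below background on 10 of the 12 arrays and below the WT arrays of every condition. No difference of Irf7 passed, the nearest being -1.22 (SE 0.36, adjusted p = 0.0539) under OGD.

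Stat2, the STAT protein that joins IRF9, read 659.9 and 337 untreated, 539 and 311 under OD, 505 and 295 under GD, 318 and 246 under OGD, 546 and 662 under TG and 343 and 347 under TM in WT cells. Stat2 in KO cells gave 306 and 359 untreated, 278 and 374 under OD, 324 and 331 under GD, 318 and 287 under OGD, 489 and 545 under TG and 528 and 589.7 under TM. Its genotypes overlapped untreated and under OD, GD and OGD, and its differences, from -0.51 untreated (95% interval -1.17 to 0.15) to 0.69 under TM, did not pass. Irf1, which drives guanylate-binding proteins and antigen presentation genes after interferon gamma, read 2980.3 and 6488 untreated, 3706 and 7751 under OD, 2852 and 3197 under GD, 1751 and 1793 under OGD, 2622 and 2927 under TG and 2094 and 2202 under TM in WT cells. Irf1 in KO cells gave 4588 and 7270.1 untreated, 5415 and 6194 under OD, 3901 and 3654 under GD, 4090.4 and 2677 under OGD, 13985 and 15158 under TG and 9651 and 10937 under TM. The genotypes overlapped untreated and under OD, and the untreated difference was 0.39 (SE 0.34, adjusted p = 0.762). Under TG and TM both KO arrays lay far above both WT arrays.

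The 3 RNA sensors, the helicases Ddx58 (RIG-I), Ifih1 (MDA5) and Dhx58 (LGP2), were not called in untreated cells and differed by -0.77, -0.26 and -0.30. Bst2 (tetherin, which holds budding virus at the cell surface) had differences of -0.38 to -1.64 over the 6 conditions, none of them called, and its replicate 1 was at least 2-fold above replicate 2 in the WT OD, WT GD, WT OGD and KO GD groups. Ifitm3, a membrane protein that blocks viral entry, had the brightest member probe, which says nothing of its amount against another gene. Ifitm3 in WT cells read 41286 and 30669 untreated, 32174 and 19329 under OD, 38595 and 24573 under GD, 28028 and 23205 under OGD, 28785 and 36069 under TG and 24453 and 23590.4 under TM. Ifitm3 in KO cells gave 20305 and 27265 untreated, 17848 and 20337 under OD, 17018 and 27084 under GD, 13308 and 21078 under OGD, 44439 and 38186 under TG and 41378 and 38595 under TM. Its largest difference was 0.73 (SE 0.30, adjusted p = 0.175) under TM, where both KO arrays lay above both WT arrays.

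Ifit1, the cap-binding member of the IFIT family, had no probe above background. Ifit1 in WT cells read 209 and 167 untreated, 192 and 199 under OD, 197 and 188 under GD, 187 and 151 under OGD, 178 and 200.4 under TG and 189 and 189 under TM. Ifit1 in KO cells gave 190.5 and 192 untreated, 216 and 183 under OD, 168 and 188 under GD, 187 and 166 under OGD, 159 and 190.0 under TG and 225 and 199 under TM. Xaf1, an antagonist of apoptosis inhibitors, read 175 and 201 untreated, 184 and 194 under OD, 188 and 179.7 under GD, 178 and 177 under OGD, 194 and 208 under TG and 170.2 and 174 under TM in WT cells. Xaf1 in KO cells gave 206 and 163 untreated, 214 and 164 under OD, 209 and 222 under GD, 207 and 197 under OGD, 163 and 206 under TG and 161 and 202 under TM. Neither gene was tested, and these signals do not show that it was absent.

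**Figure D2:**
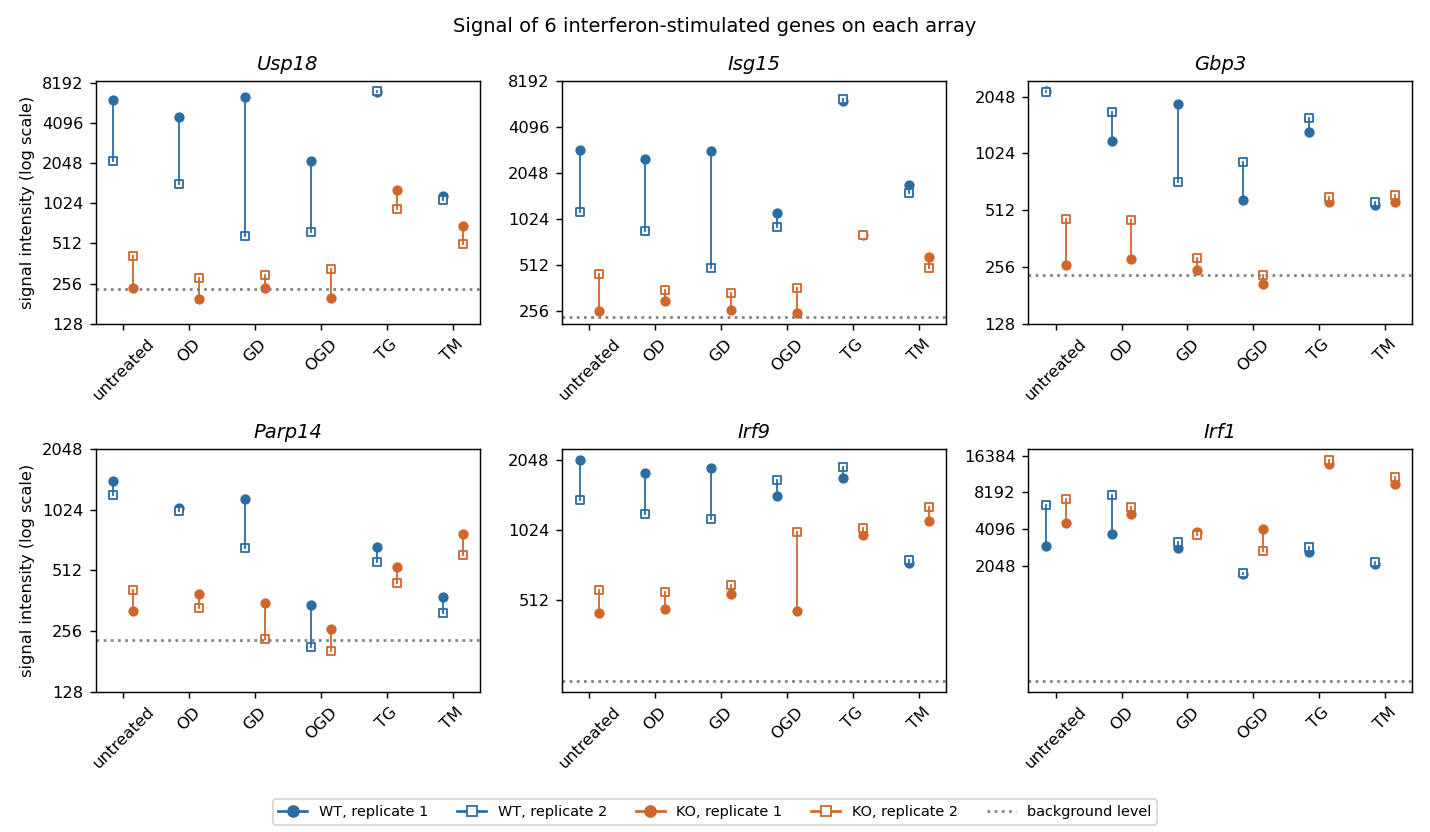
Signal intensity (log2-scaled axis) of Usp18, Isg15, Gbp3, Parp14, Irf9 and Irf1 in each condition, with WT in blue and KO in orange. Filled circles are replicate 1, open squares replicate 2, each line joins the 2 arrays of a group, and the dotted line is the background level of 231. Usp18 replicate 1 lies above replicate 2 in untreated WT cells and in WT cells under OD, GD and OGD, and the KO arrays of Irf1 lie above the WT arrays under TG and TM.

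The second question was whether the difference between genotypes held under stress. Under OD, 6 members were lower in KO cells and 1 was higher (against 1.64% and 2.18% of all genes), and under GD again 6 and 1 (against 1.48% and 2.07%). Gbp3, Irf9, Oasl2, Parp14 and Samd9l were lower under both, joined by Usp18 under OD and Dtx3l under GD. Under OGD the counts were 2 lower, Gbp3 and Irf9, and 2 higher, Trim25 and Ifit2 (against 1.96% and 2.97%), with a median of -0.37. When replicate numbers entered as blocks within a BeadChip pair, 9 members were called under OGD. Ifit2, which binds AU-rich viral RNA, read 579.6 and 571 in WT and 1567 and 996 in KO cells under OGD, a difference of 1.12 (SE 0.21, adjusted p = 0.00333). Across the 6 conditions, 12 members were lower at least once, 6 were higher at least once, 16 were never called and 13 were below WT in every condition. These counts across conditions were not taken over all genes, so they have no share to be read against. The 13 include Oas1a, Ifih1 and Rtp4, and the 6 include Trim25, which passed the background filter through 1 genotype only. For these members the direction is no independent evidence. Dtx3l was the 1 member called in both directions. The fit on only the 4 arrays compared called 0 members under OD, GD and OGD. Under OD 2 members were called without replicate 1 of KO OD and 4 without replicate 1 of WT OD. Under GD 12 were called without replicate 2 of WT GD, 4 without its replicate 1 and 3 without either KO GD array. Under OGD 1 was called without replicate 1 of KO OGD.

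Under TG, 5 members were lower in KO cells (15.2%, against 1.79%) and 2 were higher (6.06%, against 3.08%). The lower ones were Isg15, Rsad2, Ifit3, Gbp3 and Cmpk2, the mitochondrial nucleotide kinase gene beside Rsad2. Rsad2 read 1087 and 1302 in WT and 328 and 269 in KO cells, a difference of -2.0 (SE 0.35, adjusted p = 0.00183). The higher ones were Trim25 and Irf1, the latter at 2.39 (SE 0.34, adjusted p = 0.000279). The other probes of Irf1 gave 0.84 to 2.17, and its limma call was lost with the median of its probes (adjusted p = 0.0575). Without 1 array at a time, whichever it was, 3 or 4 members were called, and Gbp3, Ifit3 and Isg15 each lost their call whichever TG array was left out.

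Under TM, none of the 33 was lower (against 2.02% of all genes) and 5 were higher (15.2%, against 3.54%): Irf1, Gbp2, Trim25, Dtx3l and Ddx58. By limma's unadjusted p under 0.05, 1 member was lower, Isg15, and 11 were higher. The median difference was -0.00. Irf1 differed by 2.26 (SE 0.34, adjusted p = 0.000441), and its 4 other probes gave 0.17 to 1.98. Gbp2, which attacks vacuoles beside Gbp3, read 573 and 479.8 in WT and 1870.1 and 1837 in KO cells, a difference of 1.82 (SE 0.38, adjusted p = 0.00637), while its second probe gave 0.24. Ddx58 read 403 and 428 and 856 and 1067, a difference of 1.20 (SE 0.24, adjusted p = 0.00481), and its second probe gave 0.20. Dtx3l differed by 1.35 (SE 0.21, adjusted p = 0.000651), and its second probe by -0.23. With the median of a gene's probes, Trim25 and Gbp2 remained called and Irf1 (adjusted p = 0.0777), Ddx58 and Dtx3l did not.

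**Figure D3:**
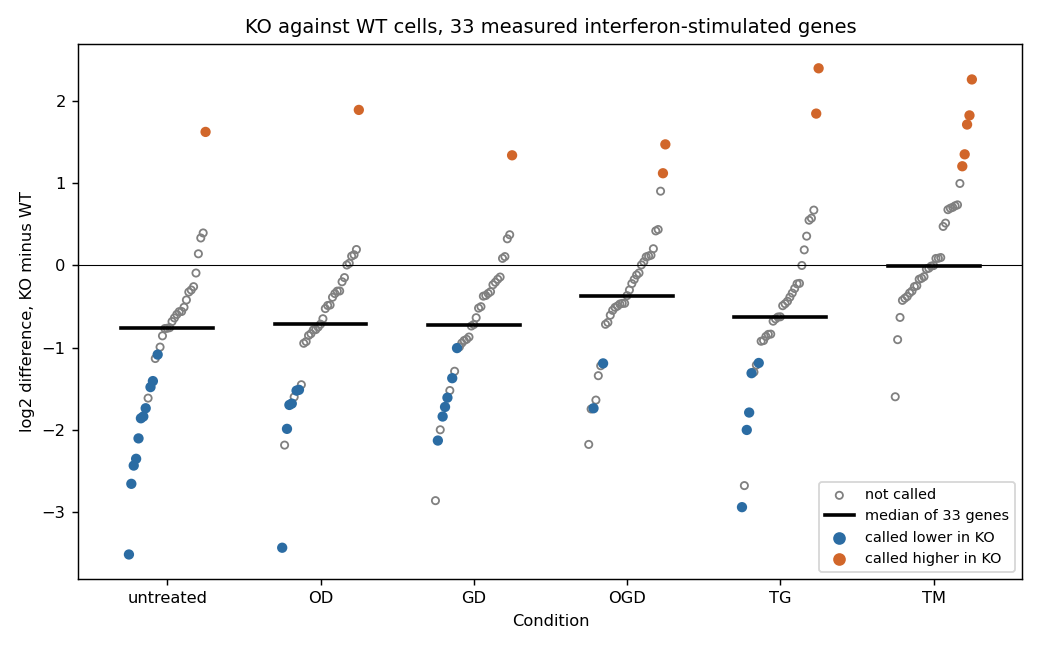
Log2 difference, KO minus WT, of the 33 measured members (points) in each of 6 conditions, with 2 arrays per group. Filled points were called (blue lower, orange higher in KO cells), open points were not, and the black bar is the median, which is -0.77 in untreated cells and -0.00 under TM.

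Stress responses within WT cells were compared next. These 5 comparisons share the untreated WT arrays. OD and GD called no member by limma (against 0.244% of genes higher under OD and 0.00738% lower under GD), and at an unadjusted p under 0.05 they gave 0 and 4 members, the 4 all lower. OGD lowered 11 members and raised none (33.3% lower, against 2.33% of all genes lower and 2.14% higher), with a median of -0.79. They were the transcription factor Irf1, the effectors Adar, Eif2ak2, Ifit2, Rsad2 and Samd9l, the GTPases Gbp3 and Igtp, the modifiers Parp14 and Trim21, and Ifi35. With the median of a gene's probes, the calls of Irf1 (adjusted p = 0.218) and Trim21 (adjusted p = 0.35) were lost. The other probes gave -1.54 to -0.44 for Irf1 and -0.25 and 0.01 for Trim21. Parp14 changed the most, by -2.28 (SE 0.28, adjusted p = 0.000203), to arrays of 343 and 213 at the edge of background. Array weights left 5 of the 11, as did leaving out either untreated array or replicate 2 of OGD, the fit on only the 4 arrays of these groups left 0, and the WT OGD arrays were the duplicates with the widest spread of all groups.

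Eif2ak2 (PKR, the kinase that stops translation on double-stranded RNA) read 8044 and 4479 untreated, 7573 and 5301 under OD, 6928 and 2478 under GD, 2885 and 858 under OGD, 3845 and 4490.3 under TG and 2574 and 2791 under TM in WT cells. Eif2ak2 in KO cells gave 3859.7 and 4278 untreated, 3700.0 and 5559 under OD, 3315 and 3225 under GD, 2530.1 and 1788 under OGD, 3553 and 3556 under TG and 4126 and 4743 under TM. Under OGD in WT cells it changed by -1.93 (SE 0.48, adjusted p = 0.0225), both arrays lying below both untreated ones, although they stood more than 3-fold apart. The call was lost without replicate 2 of WT OGD (adjusted p = 0.243). Ifit2 changed by -1.54 (SE 0.21, adjusted p = 0.000495) with tight duplicates. Rsad2 reached background under OGD, where its fall was at least 2.42-fold. Adar, the RNA-editing deaminase, changed by -1.13 (SE 0.27, adjusted p = 0.018) with its brightest probe, whereas its 4 other probes gave -1.02 to 0.35 and the median of its probes 0.14.

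TG and TM gave different calls among the members in WT cells. TG raised Mx2 and Cmpk2 (6.06%, against 2.08% of all genes) and lowered Parp14 and Dtx3l (against 1.69%), with a median of 0.01. Mx2, a dynamin-like antiviral GTPase, read 613 and 259 untreated, 386 and 246 under OD, 430.2 and 208 under GD, 303 and 276 under OGD, 1109 and 1123 under TG and 275 and 315 under TM in WT cells. Mx2 in KO cells gave 211 and 229 untreated, 249 and 194 under OD, 188 and 197 under GD, 192 and 219 under OGD, 590.2 and 662 under TG and 306 and 282 under TM. It rose by 1.49 (SE 0.34, adjusted p = 0.0155) in WT cells, where both TG arrays lay above all other WT arrays. Isg15 (1.76, adjusted p = 0.133), Rsad2 (1.09, adjusted p = 0.0892) and Ifit3 (1.04, adjusted p = 0.273) had WT TG arrays above both untreated ones and did not pass. TM raised none and lowered 5 (15.2% lower, against 0.989% of all genes lower and 1.54% higher): Parp14, Gbp3, Dtx3l, Gbp2 and Igtp, with a median of -0.65. The median of a gene's probes left 3 of the 5. The Gbp2 call was lost in 9 of 14 alternatives, with a second probe at -0.18. Dtx3l had second probes at 0.02 under TM and 0.22 under TG, and both of its calls were lost with the median of its probes. Gbp3 changed by -1.98 (SE 0.36, adjusted p = 0.00592), Parp14 by -1.93 (SE 0.28, adjusted p = 0.000813) and the brightest probe of Dtx3l by -1.69 (SE 0.21, adjusted p = 0.000262). When replicate numbers entered as blocks, 8 members were called under TM. No TG call passed without replicate 1 of WT TG, and 1 passed without replicate 2 of WT TG or of untreated WT. Under TM 2 passed without replicate 1 of WT TM and 3 without replicate 2 of WT TM or of untreated WT.

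The WT TG and WT TM arrays lay on another BeadChip pair than the untreated WT arrays, and no WT group without ER stress lay on that pair, so treatment and BeadChip pair cannot be told apart in these responses. TG and TM could be set against each other within that pair. Signals were lower under TM than under TG for 31 of 33 members in WT cells, with a median of -0.63 (0.005 over all genes). In KO cells they were lower for 18 of 33, with a median of -0.03 (-0.002 over all genes). No member was called in either (against 0 of 13547 genes between WT TM and WT TG and 0.214% higher and 0.185% lower under TM between KO TM and KO TG), and 20 and 2 members had an unadjusted p under 0.05. Neither the sign nor the unadjusted p was counted over all genes, in these or other comparisons. Usp18 read 6919 and 7043 under TG and 1151 and 1075 under TM in WT cells.

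In KO cells, no member was called under OD, GD or OGD by limma (against 0.288% of all genes higher under OD, 0.00738% lower under GD, and 0.974% higher and 0.295% lower under OGD), and 1, 0 and 4 members had an unadjusted p under 0.05. TG raised 3 members and lowered none (9.09% higher, against 2.97% of all genes higher and 2.27% lower): Mx2, Irf1 and Ddx58, with a median of 0.42. Mx2 rose at least 2.71-fold, its untreated KO arrays being below background. Irf1 rose by 1.33 (SE 0.34, adjusted p = 0.0224), with TG arrays at 13985 and 15158, the brightest of its 24. TM raised 2 and lowered none (6.06% higher, against 1.79% of all genes higher and 1.34% lower): Irf9, by 1.24 (SE 0.31, adjusted p = 0.0326), and Ddx58, by 1.06 (SE 0.24, adjusted p = 0.0193), also with a median of 0.42. The second probe of Ddx58 gave -0.09 under TG and 0.01 under TM. With the median of a gene's probes 1 member was called under TG and 1 under TM, neither of them Ddx58. Under TG and TM, 28 and 29 of the 33 differences were above 0, while the medians over all genes were -0.012 and -0.006. Under TG no member was called without replicate 1 of the untreated or replicate 2 of the TG arrays, and 5 were called without replicate 2 of the untreated arrays. The TM calls of Irf9 and Ddx58 were both lost without replicate 1 of the untreated or either of the TM arrays.

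The untreated KO arrays lay on another BeadChip pair than the KO TG and TM arrays, whereas the KO OD arrays shared their pair. Against KO OD, TG raised 4 members (12.1%, against 2.92% of all genes higher and 2.68% lower), Mx2, Irf1, Ifit3 and Ifitm3, and TM raised 1, Irf9 (3.03%, against 1.65% higher and 1.68% lower). Irf9 differed from KO OD by 1.23 under TM, near the 1.24 against untreated cells, and neither Ddx58 call was kept. KO OGD against KO OD called no member by limma (against 0.251% of all genes higher and 0.111% lower), and 7 were lower at an unadjusted p under 0.05. This reference was chosen after the data were seen, and it adds the effect of OD. No KO member was called for OD, but that comparison lay across BeadChip pairs and does not show that OD had no effect.

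**Figure D4:**
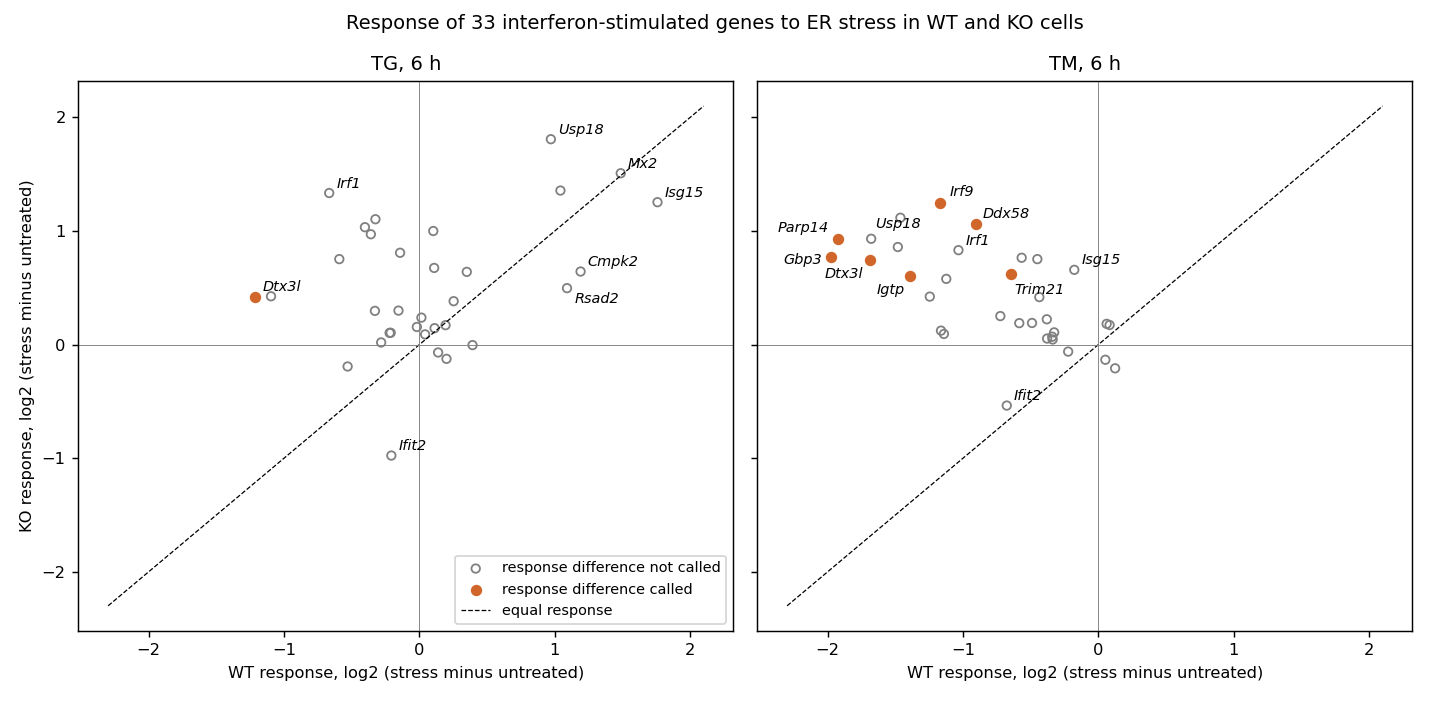
Log2 response to TG (left) and TM (right) of the 33 measured members, WT on the horizontal and KO on the vertical axis, each as stress minus untreated with 2 arrays per group. Orange points had a called difference between the KO and WT responses, grey circles did not, and the dashed line marks equal responses. Under TM the 7 called members, Parp14, Gbp3, Dtx3l, Irf9, Igtp, Ddx58 and Trim21, lie left of 0 in WT and above 0 in KO cells.

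The last comparison set the response of KO cells against that of WT cells for each stress. It equals the KO minus WT difference under stress less that in untreated cells, so for GD, TG and TM both of these differences lay within 1 BeadChip pair. OD, GD and OGD gave no call by limma (0 of all genes under OD and GD, 0.00738% higher and 0.0148% lower under OGD), with 0, 0 and 6 members at an unadjusted p under 0.05. For TG the difference was called for Dtx3l (3.03% higher, against 0.281% of all genes higher and 0.192% lower), and for 4 members, Dtx3l among them, when replicate numbers entered as blocks, with or without BeadChip pair. Under TM it was called for 7 members, all with the higher response in KO cells (21.2%, against 0.362% of all genes higher and 0.251% lower). The median was 1.20 over the 33 and -0.011 over all genes, and 31 members had values above 0. The 7 were the modifiers Parp14, Dtx3l and Trim21, the GTPases Gbp3 and Igtp, the factor Irf9 and the sensor Ddx58.

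Parp14 had a response difference of 2.85 (SE 0.39, adjusted p = 0.00386) under TM. Its WT arrays went from 1416 and 1215 untreated to 379 and 314 under TM, and its KO arrays from 321 and 407 to 776 and 609. The genotypes thus exchanged order without overlapping. Gbp3 gave 2.75 (SE 0.52, adjusted p = 0.0263), from 2201 and 2161 to 544 and 566 in WT and from 261 and 459 to 568 and 617 in KO cells, so its genotypes lay close together under TM. Dtx3l gave 2.43 (SE 0.30, adjusted p = 0.00177) with its brightest probe and -0.06 with its second. Irf9 gave 2.41 (SE 0.44, adjusted p = 0.0229), and its KO arrays exceeded its WT arrays under TM and in no other condition. Of the 7, only the differences of Parp14 and Dtx3l passed under each of the 18 alternatives run. The count was 2 without replicate 1 of untreated KO or any of the 4 TM arrays, 3 without replicate 2 of untreated WT and 4 without its replicate 1. The TG difference of Dtx3l had a second probe at -0.29 and was lost with the median of its probes (adjusted p = 0.209) and without any of the 4 TG arrays. Irf1 had differences of 2.00 under TG (adjusted p = 0.108) and 1.87 under TM (adjusted p = 0.156), which were not called, and Gbp2 missed the threshold under TM (2.58, adjusted p = 0.0502).

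In all, 11 of the 33 measured members were called in none of the 21 comparisons: Irf7, Stat2, Oas1a, Ifih1, Dhx58, Bst2, Parp9, Rtp4, Iigp1, Irgm1 and Ifitm3. The same count was not taken over all genes. Oas1a, Ifih1, Parp9, Rtp4 and Iigp1 were at or near background on most arrays, where a difference may not be detectable. Irgm1 encodes an immunity-related GTPase that acts on lysosomes and autophagy. Its brightest probe ranged over 7551 to 26877 in WT and 12389 to 19444 in KO cells, with differences of -0.49 to 0.37 between the genotypes. The further probes of Irgm1 disagreed, with KO minus WT differences of -0.91 and 0.13 untreated and 0.55 and -0.07 under TM. They gave WT responses to TM of -1.21 and 0.0, and TM response differences of 1.47 and -0.2. Parp9 was brightest in WT cells under OGD (232 and 432).

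Of 63 further interferon-stimulated genes in a second list, 47 were measured. In untreated KO cells 10 were lower (against 1.44% of all genes) and 1 was higher (against 2.27%), with a median of -0.24. Ifi27l2a, whose human relative encodes a mitochondrial protein, differed by -3.22 (SE 0.40, adjusted p = 0.00012), at 9511 and 6229.6 in WT and 812 and 838 in KO cells, and Oas1g, a 2-5A synthetase gene related to Oas1a, by -2.88 (SE 0.54, adjusted p = 0.00409). The higher one was the galectin gene Lgals9, at 1.31 (SE 0.30, adjusted p = 0.0183). Under TM, 6 of the 47 were higher in KO cells and 1 was lower (against 3.54% and 2.02%), and the response difference was called for 5, all higher in KO cells (against 0.362%), among them Irgm2, a relative of Irgm1 (2.57), and Uba7, the activating enzyme of ISG15 (1.86).

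Upstream of the members, 7 of 16 interferon ligand genes were measured and none was called by limma in the 21 comparisons, with 5 of 147 pairs of gene and comparison at an unadjusted p under 0.05. Ifnb1, which encodes the type I interferon beta, stayed between 146 and 208, below background on every array. Of 8 measured genes of receptors and kinases, 1 was lower in KO cells untreated and under OD, GD and OGD (against 1.44%, 1.64%, 1.48% and 1.96% of all genes), 2 were higher under TG and 1 under TM (against 3.08% and 3.54%). Ifngr2, a subunit of the interferon gamma receptor, was the lower one, at -1.68 (SE 0.26, adjusted p = 0.000766) untreated. Ifngr1, its partner subunit, was higher under TG, at 1.03 (SE 0.16, adjusted p = 0.000705), and the kinase gene Jak2 under TG and TM (1.22 and 1.05). Jak1 (625 to 1844) and Tyk2 (448 to 1613) were not called between genotypes. Ifnar1 was below background, and Ifnar2 ran from 251 to 675.

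Of 14 measured sensors and adaptors, 2 were lower in untreated KO cells and none was higher (against 1.44% and 2.27% of all genes). Tlr2, a receptor for bacterial lipoproteins, and Nlrc5, the activator of MHC class I genes, were at -1.76 and -1.63. Irf3, the factor that starts interferon transcription, was not called between genotypes and ran from 2544 to 6517. Of 16 inhibitors, 1 was higher in untreated KO cells and none was lower (against 2.27% and 1.44% of all genes). Ptpn6, the phosphatase SHP-1, was higher in KO cells in all 6 conditions, by 1.07 to 1.39. Socs1, a feedback inhibitor of JAK kinases, stayed between 159 and 359.

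Of 11 fibroblast markers, 9 or 10 were above background in each group, and their summed signal was 56668 to 90888 in WT and 81744 to 155404 in KO groups. Untreated, 3 of the 11 were higher in KO cells and 1 was lower (against 2.27% and 1.44% of all genes). Under TG the counts were 4 and 1 (against 3.08% and 1.79%), and under TM 6 and 0 (against 3.54% and 2.02%). OD gave 3 and 1 (against 2.18% and 1.64%), GD 2 and 1 (against 2.07% and 1.48%) and OGD 1 and 0 (against 2.97% and 1.96%). Among the 11 markers, Thy1 was higher in KO cells in all 6 conditions, Dcn in 5 and Pdgfra under TG and TM (3.67 and 5.27), while S100a4 was lower in 4. Their part in the member differences was not tested. Blood cell markers summed to 1950.1 to 2898 over 9 genes in every group, with 2 to 4 of them above background in each. Of 5 endothelial markers, 0 to 3 were above background per group. The pan-leukocyte marker Ptprc and the endothelial marker Pecam1 did not exceed 243. The 3 plasmacytoid dendritic markers summed to 7770.3 to 33932, nearly all of it from Tcf4 (7358 to 33568), a factor that other cells also express, whereas Siglech and Ly6d did not exceed 243.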

How the data were processed

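Total RNA of 24 MEF samples (12 groups of genotype and treatment, 2 arrays each, groups and replicate numbers from the labels) was hybridized to Illumina Mouse-6 BeadChips. The deposited values are linear intensities that the authors had already normalized between arrays with GenomeStudio, whose version is not given in the sources used here. All arrays had nearly the same ranked values (median spread between arrays 0.0816%), so no further normalization was applied. A second, un-normalized table of 24 signal and 24 detection columns was not used, because its column names match no sample label. Probe symbols came from the platform annotation: of 45281 probes, 34885 had 1 symbol, 18 had several and 10378 had none, and 34807 matched the RefSeq gene table by gene ID, with 0 symbols changed. The background level of 231 was set from the lower side of the signal distribution (mode 181, upper tail 0.01), and 27049 probes (59.7%) exceeded it on at least 1 array.

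Log2 intensities were fitted with limma 3.58.1 in R 4.3.3 (lmFit and eBayes, 1 mean per group, 12 residual degrees of freedom, 3.42 prior), over all kept probes. The brightest probe stood for a gene, and p-values were adjusted by the Benjamini-Hochberg method over all kept probes. Where a gene was below background on all arrays of 1 group, an "at least" fold set the brighter group's mean against the background level or the dim group's own mean, whichever was higher per array. Members are printed array by array when they are the 4 transcription factors, the 10 largest called differences in untreated cells, the 3 largest called in each family of responses, the brightest, or without a probe above background. The members and lists were chosen with earlier results of these data known. The fit was tested on simulated data with independent noise on each array, which does not carry a deviation shared between arrays. Same-numbered arrays deviated together in all 66 pairs of groups (median r 0.374, range 0.134 to 0.762), so the replicate numbers pair the arrays. The main fit holds no term for this pairing, so its SE and p-values do not use it. Alternatives were a fit on only the groups compared, no or a looser filter (level 215), normexp, cyclic loess, the unadjusted p, the replicate block with and without BeadChip pair, array weights, the median of a gene's probes and each array left out. The BeadChip pairs were read from array names under the study's heat map. The arrays' number limits the precision.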

Additional observations from a re-analysis of the deposited data

Results flagged for a closer look

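The responses of KO and WT cells to ER stress differed by limma's interaction contrast for 8 pairs of member and stress, given as the log2 response in KO minus that in WT cells. Under TM these were Parp14 at 2.85 (SE 0.39, adjusted p = 0.00386), Gbp3 at 2.75 (SE 0.52, adjusted p = 0.0263), Dtx3l at 2.43 (SE 0.30, adjusted p = 0.00177) and Irf9 at 2.41 (SE 0.44, adjusted p = 0.0229). Igtp followed at 1.99 (SE 0.37, adjusted p = 0.0256), Ddx58 at 1.97 (SE 0.34, adjusted p = 0.0189) and Trim21 at 1.27 (SE 0.25, adjusted p = 0.0379). Under TG the difference was called for Dtx3l, at 1.63 (SE 0.30, adjusted p = 0.0285). In each of the 7 TM results the WT response was below 0 and the KO response above 0. The further probes of Gbp3 (2.44) and Irf9 (1.71) gave differences of the same sign and like size, those of Dtx3l (-0.06 under TM and -0.29 under TG), Ddx58 (0.16) and Trim21 (-0.04 and 0.12) did not, and Parp14 and Igtp had 1 probe above background.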

How the results depend on the processing

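Numbers of members called are given for each alternative that moved a count by over 1.5 times, and why a count moved was not tested. The fit on only the groups compared called 3 in untreated cells (KO against WT), 0 under OD, GD and OGD, 0 for WT OGD, 2 for WT TG, 5 for KO TG, 1 for KO TM, and 0 and 4 for the response difference under TG and TM. The unadjusted p with the fold called 11 under GD and 9 under OGD (KO against WT), 7 for WT TG, 11 for WT TM, 5 for KO TG, and 4, 7 and 15 for the response difference under OGD, TG and TM. The replicate block called 8 for WT TM and 4 for the TG response difference. Within BeadChip pairs the replicate block called 9 for KO against WT under OGD, 9 for WT TM and 4 for the TG response difference, and neither block moved another count by over 1.5 times. Smaller moves of the replicate block were 14 untreated, 10 under OD, 10 under GD, 6 under OGD and 9 under TG for KO against WT. It called 9 for the TM response difference and kept 5 for KO against WT under TM. Array weights called 5 for WT OGD, 8 for WT TM and 4 for the TG response difference. The median of a gene's probes called 2 for KO against WT under TM, 3 for WT TM, 1 for KO TG, 1 for KO TM, and 0 and 4 for the response difference under TG and TM. It also turned the WT OGD response of Adar to 0.14, the only reversal. Against KO OD, KO TM called 1.

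Leaving out 1 array gave, for KO against WT, 4 to 12 untreated, 2 to 6 under OD, 3 to 12 under GD, 1 to 4 under OGD, 3 to 4 under TG and 4 under TM. For the WT responses it gave 5 to 10 under OGD, 0 to 4 under TG and 2 to 4 under TM, and for the KO responses 0 to 1 under OGD, 0 to 5 under TG and 0 to 2 under TM. For the response difference it gave 0 to 2 under OGD, 0 to 1 under TG and 2 to 7 under TM, and 0 for the other comparisons. Calls kept under every alternative were Gbp3, Parp14 and Trim25 untreated, Trim25 under TG and TM, Rsad2 under TG, Parp14 for WT TM, and Parp14 and Dtx3l for the TM response difference. Of these, Trim25 had passed the background filter only through KO arrays, and the second probe of Dtx3l gave a TM response difference of -0.06. With 2 arrays per group the SE is pooled over groups whose duplicates differ in spread (0.0444% to 8.40% of probes at least 2-fold apart), so it can be too large for TG and TM and too small for WT OGD.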
